A study of Mus musculus with 36 samples.

Results

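The data describe endothelin-1 and a set of vascular growth factors and their receptors in mouse bone marrow-derived macrophages (BMDMs). The set holds 10 of the 54532 genes in the count table, chosen by name. Edn1, Ednrb and Ece1 are the ligand, a receptor and the activating enzyme of the endothelin system. Vegfa, Kdr and Flt1 are a ligand and both of its receptors in the VEGF system. Pdgfa, Pdgfb and Hbegf encode growth factors for mesenchymal and epithelial cells, and Tgfbi encodes a matrix protein induced by TGF-beta. Edn1, Kdr and Pdgfb are in the set because they had been seen to be lower with Core Circadian Modulator (CCM), a small molecule that binds the PASB domain of the clock protein BMAL1. Their values in comparisons that involve CCM chose them and are given as a description, with no test. For the other 7 genes every comparison was tested.

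The cells were grown for 7 days with MCSF from the marrow of female C57BL/6 mice aged 13 to 17 weeks. WT mice carried floxed Bmal1 alleles and no Cre (3 replicates). KO mice, labelled LysM-Cre;Bmal1 flox/flox, also carried Cre recombinase driven by the myeloid LysM promoter (6 replicates). Cells of each genotype received DMSO vehicle, 100 µM CCM, 100 nM lipopolysaccharide (LPS, a bacterial cell wall component that sets off inflammatory gene expression) or LPS with CCM for 6 h. This gave 36 poly(A) RNA-seq libraries with 13469262 to 28288923 counted read pairs each. Levels are in CPM, read counts scaled to a common library total with a TMM factor set over all 36 libraries. A gene is called when its p from edgeR's quasi-likelihood test, adjusted over all genes tested by the method of Benjamini and Hochberg, does not exceed 0.05. The study counts its replicates as mice, and the labels do not tie a library to a mouse or say whether a replicate number marks the same mouse in each treatment.

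The 8 macrophage markers summed to 11548 to 23179 CPM per library, and none was at 0 in any library. Arntl, the Bmal1 gene, had 7.27 to 12.9 CPM in the 12 WT libraries, with a median of 9.53. In the 24 KO libraries it had 2.13 to 10.7 CPM, with a median of 7.28, so the ranges overlapped. A count over the whole gene includes exons outside the deleted segment and does not measure the deletion itself. How complete the deletion was in the KO cells was not tested. WT vehicle replicate 3 stood apart in endothelial transcripts. Leaving aside Vwf, which had 21.2 to 123 CPM in every library, the other 9 of 10 endothelial markers summed to 80.6 CPM there, against 10.1 and 11.3 in the other WT vehicle libraries and at most 50.3 in any other library. Tek was at 0 in 13 libraries, Cldn5 in 11, Robo4 in 7 and Emcn in 2. The 8 fibroblast markers summed to 338 to 1848 CPM. The 8 neutrophil markers summed to 982 to 1023 CPM in the 4 libraries of KO replicate 6 and to 323 to 877 elsewhere. The B cell list reached 10.4 CPM, the T cell list 33.6, the megakaryocyte list 160 and the erythroid list 11.4. Of the T cell list Cd4 reached 32.4 CPM and every other gene at most 1.96. Of the megakaryocyte list Itga2b reached 96.7 CPM, while Gp1bb was at 0 in 35 libraries. In these bulk samples fewer cells of a type and less RNA per cell cannot be told apart.

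Endothelin-1 is a vasoconstrictor peptide made mainly by endothelial cells and also by activated macrophages. It is cut from its precursor by endothelin-converting enzymes and acts through EDNRA and EDNRB, of which EDNRB can also clear the peptide. VEGF-A signals through KDR (VEGFR2) to drive vessel growth, while FLT1 (VEGFR1) binds it more tightly, signals more weakly and carries migration signals in monocytes and macrophages. PDGF chains pair into dimers that recruit fibroblasts and mural cells, and HB-EGF is shed from the cell surface to activate the EGF receptor.

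Positions are on GRCm38, the build called mm10 in the submitters' processing notes. Edn1 lies on chromosome 13 from 42301476 to 42307990, Ednrb on chromosome 14 from 103814625 to 103844402 and Ece1 on chromosome 4 from 137862237 to 137965229. Kdr spans 75932827 to 75978458 and Flt1 147561604 to 147726011, both on chromosome 5, which also holds Pdgfa from 138976014 to 138997370. Vegfa lies on chromosome 17 from 46016993 to 46032369, Pdgfb on chromosome 15 from 79995874 to 80014977 and Tgfbi on chromosome 13 from 56609523 to 56639562. All 10 are protein-coding. Whether counting used strand is not given in the sources used here, and 4 of the genes overlap others. The antisense gene 6330403L08Rik held 10066 counts over all libraries, beside 23715 for Pdgfa, so part of the Pdgfa count is uncertain. Overlapping genes held 1711 counts for Ece1 (Gm13012), 123 for Pdgfb (Mir7213 and Gm41361) and 82 for Edn1 (Gm47118).

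RefSeq promoter sequences were at hand for 8 of the 10 genes. The 250 bases before the start site are printed for Edn1, which had the largest LPS response of the set, and for Kdr, Flt1 and Vegfa, which hold the same motif but responded to LPS in opposite directions. Capitals mark motif matches, and each sequence reads 5′ to 3′ on the gene's strand of GRCm38.p6. The windows are chr13:42301226-42301475 (plus strand), chr5:75978456-75978705, chr5:147726012-147726261 and chr17:46032378-46032627 (minus strand) in this order.
Edn1: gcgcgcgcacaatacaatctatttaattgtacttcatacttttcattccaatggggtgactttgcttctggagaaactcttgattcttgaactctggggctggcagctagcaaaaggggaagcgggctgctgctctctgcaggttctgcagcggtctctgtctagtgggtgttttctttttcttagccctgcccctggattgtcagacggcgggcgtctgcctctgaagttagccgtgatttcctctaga
Kdr: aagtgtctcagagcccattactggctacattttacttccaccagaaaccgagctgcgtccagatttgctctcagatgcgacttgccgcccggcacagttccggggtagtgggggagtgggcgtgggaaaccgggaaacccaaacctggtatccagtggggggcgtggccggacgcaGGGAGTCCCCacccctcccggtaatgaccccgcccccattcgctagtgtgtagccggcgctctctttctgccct
Flt1: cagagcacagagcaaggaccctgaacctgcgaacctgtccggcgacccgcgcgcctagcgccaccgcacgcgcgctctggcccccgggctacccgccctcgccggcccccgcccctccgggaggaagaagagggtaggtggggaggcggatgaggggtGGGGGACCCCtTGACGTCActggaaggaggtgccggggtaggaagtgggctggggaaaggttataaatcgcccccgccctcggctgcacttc
Vegfa: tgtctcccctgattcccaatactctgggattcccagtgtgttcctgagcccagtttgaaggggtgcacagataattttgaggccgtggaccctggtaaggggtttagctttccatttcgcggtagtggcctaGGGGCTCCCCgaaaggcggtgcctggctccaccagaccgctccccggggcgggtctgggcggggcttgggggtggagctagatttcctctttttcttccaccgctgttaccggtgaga
Both strands were searched, over 250 bases before and 50 bases from each start, for the E-box CACGTG, the AP-1 motif TGANTCA, the CRE TGACGTCA and the NF-kB consensus. The NF-kB consensus began 74 bases before the start of Kdr, 92 before that of Flt1 and 118 before that of Vegfa, and it is in 4.51% of the 32851 promoter windows of the table. In Flt1 the CRE began 81 bases before the start and did not overlap the NF-kB match. The CRE is in 1.79% of all windows. The E-box, the element bound by BMAL1 with CLOCK and present in 7.15% of windows, matched in 1 of 4 Ece1 windows, 90 bases before that start, and in no other window of the set. The AP-1 motif, in 7.81% of windows, matched none of the 13 windows of these genes. A match is a run of letters and no evidence of binding.

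Levels between genes were compared per kilobase of gene length. In WT vehicle cells Tgfbi stood first with 97.9 ± 2.08 CPM per kb (SD, n = 3), followed by Pdgfb with 22.7 ± 2.26 and Vegfa with 20.2 ± 2.61, whose ranges overlapped. Pdgfa had 14.9 ± 0.748, Ece1 5.51 ± 1.23 and Hbegf 3.07 ± 1.19 CPM per kb. Kdr, Edn1, Ednrb and Flt1 closed the order with 0.884 ± 0.335, 0.604 ± 0.28, 0.368 ± 0.124 and 0.294 ± 0.251, each overlapping its neighbour. With LPS, Edn1 moved to the second place in both genotypes, at 49.9 ± 2.13 CPM per kb in WT and 45.2 ± 8.72 in KO (n = 6), its range apart from those of Tgfbi above and Pdgfb below. In KO vehicle cells the order was Tgfbi, Pdgfb, Vegfa, Pdgfa, Ece1, Hbegf, Edn1, Kdr, Ednrb and Flt1.

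**Figure D1:**
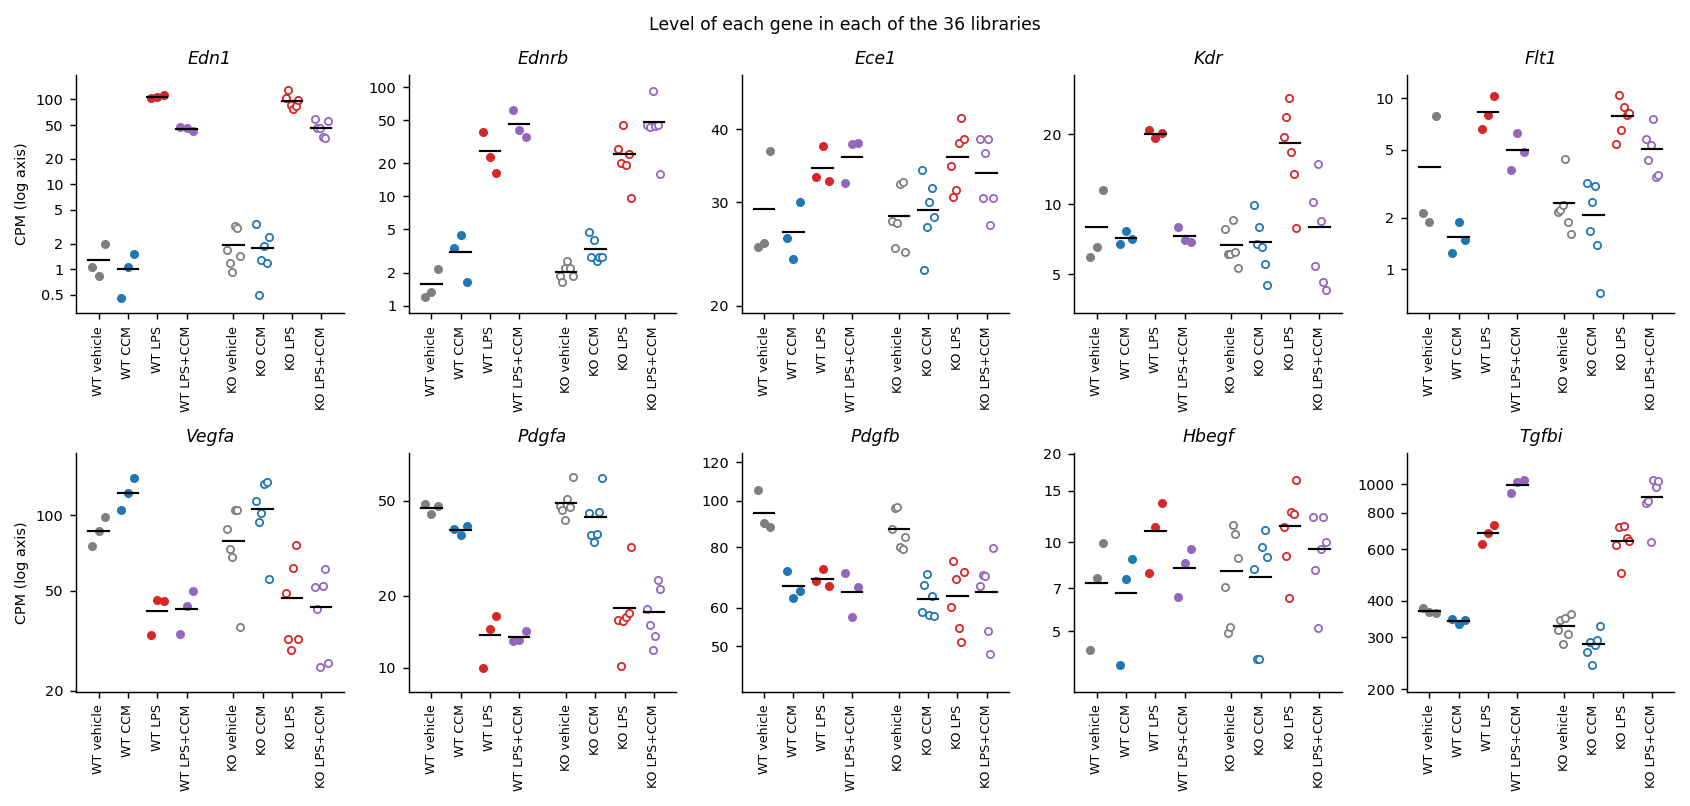
CPM on a log axis for each of the 10 genes, 1 point per library, filled for WT (n = 3 per group) and open for KO (n = 6 per group), with a line at the group mean and colours for the treatment. Edn1 lies between 0.459 and 3.45 CPM in every library without LPS and at 35.4 CPM or more in every library with it.

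LPS alone moved most of the set. In WT cells 7 of the 10 genes were called, 4 higher (Edn1, Ednrb, Kdr and Tgfbi) and 3 lower (Vegfa, Pdgfa and Pdgfb). The LPS tests of Edn1, Kdr and Pdgfb use vehicle and LPS libraries that also entered the CCM comparisons that chose these genes. Those tests are therefore not independent of the choice. LPS moved 63.0% of the 14501 genes tested, 30.6% higher and 32.4% lower, so the count of 7 is close to the background. The median log2 fold change was 0.74 for the 10 genes and -0.05 for all genes tested. In KO cells 9 of 10 were called, 6 higher and 3 lower, with Ece1 and Flt1 in addition, against 47.1% of 13648 genes (22.4% higher, 24.7% lower). The scaling matters for these directions. With total counts alone the median of all genes was -0.47 in WT and -0.44 in KO, the calls in WT were 2551 higher and 8060 lower in place of 4441 and 4698, and Ece1 turned from 0.24 to -0.18 in WT and from 0.33 to -0.07 in KO. The other 9 genes kept their direction with this scaling. Without WT vehicle replicate 3 all 10 genes were called in WT, beside 8985 of 14687 genes in all. Leaving out any other WT library changed no call of the set. The same-numbered libraries deviated together in both LPS comparisons, and a fit with this number as a block called 9 genes in WT, beside 9220 of all 14501, and 10 in KO, beside 9774 of 13648.

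CCM in unstimulated cells gave 0 calls among the 7 tested genes in WT by edgeR, where 0.0570% of 14024 genes were called, and 5 of the 7, beside 1404 genes in all, had an unadjusted p under 0.05. DESeq2 called 2 of the 7, Vegfa and Pdgfa, and 247 genes in all. In KO there were 0 calls among the 7, against 0% of 13799 genes, 1 of the 7 with an unadjusted p under 0.05 (333 genes in all) and 0 of the 7 by DESeq2, which called 24 genes. Same-numbered KO libraries deviated together here, and with the block 2 of the 7 were called in KO, Vegfa and Tgfbi, beside 429 genes in all. Same-numbered WT libraries did not all deviate together in this comparison, so the WT pair counts given below for CCM without LPS are a description.

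Under LPS, CCM gave 2 calls among the 7 tested genes in WT, Tgfbi higher and Flt1 lower, beside 11.9% of 13579 genes. In that comparison 564 genes were called higher and 1057 lower, and with total counts alone 1539 higher and 733 lower. In KO 0 of the 7 were called by edgeR, against 0.112% of 13386 genes. There 3 of the 7 had an unadjusted p under 0.05 (1070 genes in all), and DESeq2 called 0 of them and 180 genes in all. Same-numbered WT libraries deviated together, and with the block 4 of the 7 were called in WT, Ednrb and Hbegf in addition, beside 3220 of all 13579 genes. Same-numbered KO libraries did not all deviate together here, so the KO pair counts given below for LPS+CCM are a description. In a fit of all 36 libraries 0 of the 7 were called in WT, beside 17 of 15720 genes, and 1 (Tgfbi) in KO, beside 285. The LPS and the LPS+CCM comparisons share the LPS libraries.

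**Figure D2:**
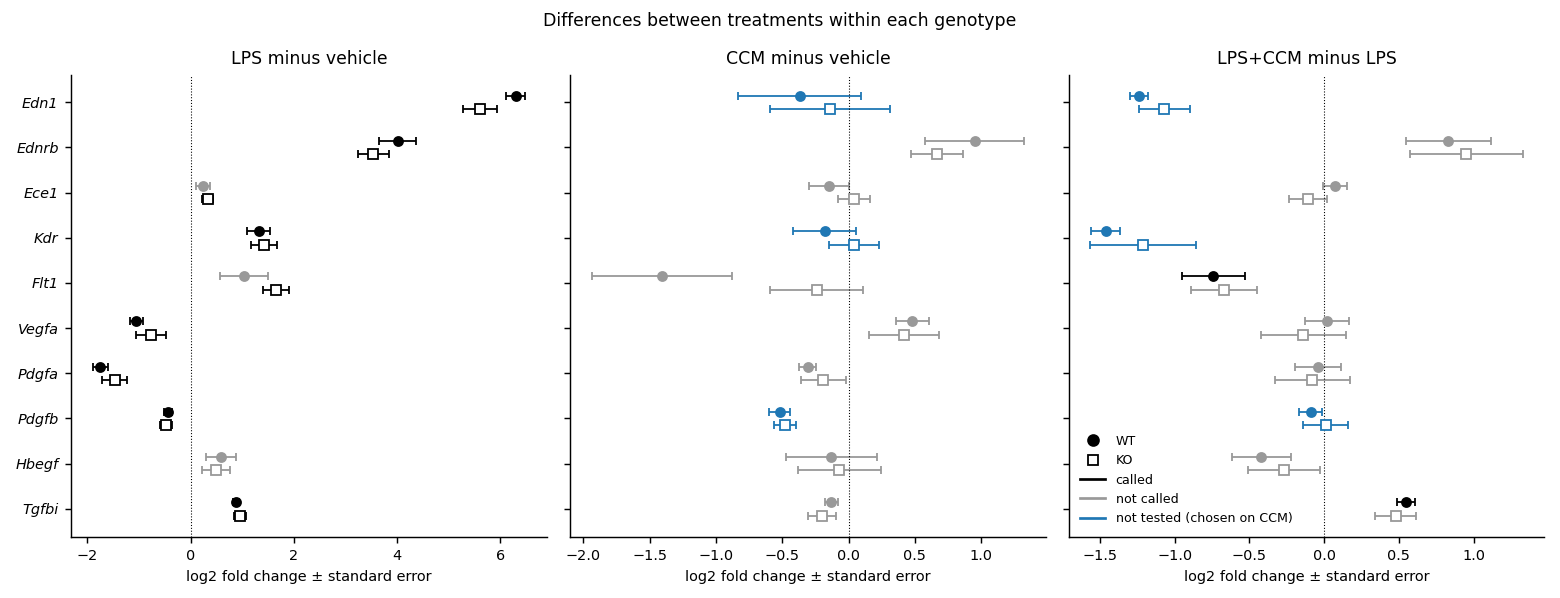
Fitted log2 fold changes with standard errors for LPS against vehicle, CCM against vehicle and LPS+CCM against LPS, with filled circles for WT (3 libraries a group) and open squares for KO (6 a group). Black marks called values, grey values not called, and blue the genes chosen on their CCM values, for which no test is given, with Edn1 and Kdr more than 1 below zero under LPS in both genotypes.

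Edn1 had the largest response to LPS in the set. WT vehicle libraries held 1.07, 0.839 and 1.97 CPM and WT LPS libraries 103, 106 and 112 CPM, in the order of the replicates. In KO cells Edn1 ran from 0.933 over a median of 1.56 to 3.27 CPM with vehicle, and from 76.2 over 93.4 to 129 CPM with LPS. No LPS library came near a vehicle library in either genotype. The log2 fold change was 6.30 in WT (standard error 0.186, edgeR adjusted p = 1.18e-09) and 5.61 in KO (standard error 0.323, edgeR adjusted p = 1.14e-08). Counts behind the vehicle values were low, from 18 to 105 read pairs per library over both genotypes.

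With LPS and CCM together Edn1 lay far above its unstimulated level and below its LPS level. WT LPS+CCM libraries held 47.6, 45.7 and 42.4 CPM, which is 42.4% of the LPS mean and 44.6 times the mean of WT CCM. KO LPS+CCM libraries ran from 35.4 over a median of 46.0 to 58.9 CPM, 48.0% of the KO LPS mean. LPS and LPS+CCM libraries did not overlap in either genotype, and the value was lower with CCM in 3 of 3 WT and 6 of 6 KO pairs of same-numbered libraries. As a description, the log2 difference was -1.24 ± 0.061 in WT and -1.07 ± 0.17 in KO (estimate ± standard error), and the difference between the genotypes was 0.18 ± 0.248. Without LPS, Edn1 was 1.01 ± 0.534 CPM with CCM and 1.29 ± 0.599 with vehicle in WT (SD, n = 3), and the groups overlapped. In KO it was 1.78 ± 1.04 and 1.94 ± 0.998 (n = 6), also overlapping. Leaving out WT vehicle replicate 3 turned the small WT difference from -0.37 to 0.09.

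Ednrb, the receptor, rose with LPS as well, and its CCM values lay on the other side from those of Edn1. WT libraries held 1.21, 1.32 and 2.18 CPM with vehicle and 39.1, 22.8 and 16.2 with LPS. KO libraries ran from 1.65 over 2.02 to 2.55 CPM with vehicle and from 9.71 over 22.5 to 44.8 with LPS. The rise was called in WT (log2 fold change 4.01, standard error 0.355, edgeR adjusted p = 4.67e-06) and in KO (3.54, standard error 0.303, edgeR adjusted p = 5.29e-07), and the groups did not overlap.

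With LPS+CCM, Ednrb had 61.9, 40.3 and 34.9 CPM in WT and 16.1 to 91.3 CPM in KO, with a median of 44.5. These ranges overlap those with LPS alone. The WT replicates kept the same order, replicate 1 highest and replicate 3 lowest, with LPS and with LPS+CCM. Within pairs of the same number the value was higher with CCM in 3 of 3 WT pairs, by 0.66 to 1.10 on the log2 scale, and in 6 of 6 KO pairs, by 0.71 to 1.19. Without a block the difference was not called in WT (0.83, standard error 0.286, edgeR adjusted p = 0.0918) or KO (0.95, standard error 0.378, edgeR adjusted p = 0.506). With the block it was called in WT (edgeR adjusted p = 1.71e-07, with a range of 2.03e-23 to 1 over the 12 alternatives). In unstimulated cells the mean was 3.13 ± 1.38 CPM with CCM and 1.57 ± 0.529 with vehicle in WT, and 3.28 ± 0.888 and 2.05 ± 0.331 in KO. Both comparisons had overlapping groups and were not called (edgeR adjusted p = 0.448 and 1).

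Ece1 moved little. Its 36 libraries ran from 23.0 to 41.8 CPM. LPS against vehicle gave 34.4 ± 2.62 and 29.2 ± 6.52 CPM in WT, which was not called (edgeR adjusted p = 0.175). In KO it gave 35.8 ± 4.32 and 28.4 ± 3.38 CPM, which was called (log2 fold change 0.33, standard error 0.114, edgeR adjusted p = 0.0307) with overlapping groups and turned to -0.07 with total counts alone. The KO call was lost without KO replicate 1, 3, 4 or 5 and with no filter beyond 1 count. All 4 CCM comparisons lay between -0.15 and 0.07 on the log2 scale and none was called.

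Kdr, the main signalling receptor for VEGF-A, rose with LPS and had a mean near its unstimulated mean with LPS and CCM together. WT vehicle libraries held 5.95, 6.53 and 11.5 CPM and WT LPS libraries 20.8, 19.2 and 20.2. KO vehicle libraries ran from 5.30 over 6.16 to 8.52 CPM and KO LPS libraries from 7.92 over 18.1 to 28.5, and the lowest LPS value, in replicate 6, overlapped the vehicle range. LPS raised Kdr in WT (log2 fold change 1.32, standard error 0.217, edgeR adjusted p = 0.000418) and in KO (1.43, standard error 0.252, edgeR adjusted p = 0.000362), in 3 of 3 and 6 of 6 pairs. Without WT vehicle replicate 3 the WT value was 1.70.

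WT LPS+CCM libraries held 7.97, 7.01 and 6.87 CPM of Kdr, 36.3% of the LPS mean, and did not overlap the LPS libraries. Their mean of 7.28 ± 0.601 lay beside 7.18 ± 0.466 for WT CCM and 7.98 ± 3.03 for WT vehicle (SD, n = 3). All 3 lay above the 5.95 and 6.53 CPM of WT vehicle replicates 1 and 2 and below the 11.5 of replicate 3, and overlapped WT CCM. KO LPS+CCM libraries ran from 4.29 over 6.95 to 14.9 CPM and overlapped the KO LPS libraries, yet 6 of 6 pairs were lower with CCM. As a description, the log2 difference was -1.46 ± 0.0979 in WT and -1.21 ± 0.353 in KO (± standard error). Without LPS the values with and without CCM overlapped in both genotypes, at -0.18 ± 0.237 in WT and 0.04 ± 0.189 in KO, and the WT value was 0.19 without vehicle replicate 3. The WT difference between the CCM values with and without LPS was -1.30 ± 0.274, against -0.85 ± 0.378 for Edn1 and 0.41 ± 0.121 for Pdgfb.

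Flt1, the other VEGF-A receptor, was low and was the gene most tied to WT vehicle replicate 3. It had 2.13, 1.90 and 7.88 CPM in the WT vehicle libraries and 6.61, 8.02 and 10.3 in the WT LPS libraries. The difference was not called (log2 fold change 1.04, standard error 0.467, edgeR adjusted p = 0.0782). Without that library it was 2.06 and called (edgeR adjusted p = 1.57e-05), and with the block it was 1.24 and called (edgeR adjusted p = 0.00313, range over the 12 alternatives 2.01e-07 to 0.245). In KO, Flt1 ran from 1.61 over 2.20 to 4.45 CPM with vehicle and from 5.45 over 8.08 to 10.5 with LPS, without overlap, and was called higher (1.66, standard error 0.247, edgeR adjusted p = 8.81e-05).

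Under LPS, Flt1 was lower with CCM in WT. The WT LPS+CCM libraries held 3.81, 6.28 and 4.89 CPM, all below the LPS libraries (log2 fold change -0.74, standard error 0.213, edgeR adjusted p = 0.0498). The call was just inside the threshold and was lost without WT LPS replicate 2 or 3 or WT LPS+CCM replicate 1 or 3 (edgeR adjusted p = 0.115, 0.17, 0.117 and 0.119), with total counts alone and in the fit of all 36 libraries (range over the 12 alternatives 0.000308 to 1). In KO the values were 3.46 to 7.61 CPM with a median of 4.87, lower in 5 of 6 pairs and not called (-0.67, standard error 0.222, edgeR adjusted p = 0.37). In unstimulated WT cells CCM libraries held 1.24, 1.89 and 1.48 CPM, below all 3 vehicle libraries, which was not called (-1.41, standard error 0.528, edgeR adjusted p = 0.429), and the difference shrank to -0.40 without vehicle replicate 3.

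The endothelial marker Cdh5 (VE-cadherin) was high in several of the unstimulated libraries with the highest levels of both receptors. It had 26.3 CPM in WT vehicle replicate 3, against 0.477 and 0.794 in the other WT vehicle libraries. KO vehicle replicate 4, the highest of its group for Kdr (8.52 CPM) and Flt1 (4.45), had 9.55 CPM of Cdh5, and KO CCM replicate 1, the highest of its group for both (9.89 and 3.19), had 10.8. This did not hold throughout, since KO CCM replicate 6, where the 9 markers summed to 50.3 CPM, was the lowest of its group for Kdr (4.50) and Flt1 (0.726) with 4.43 CPM of Cdh5. Col1a1, a fibroblast marker, was also highest of the WT vehicle libraries in replicate 3 (661 CPM, against 225 and 325). In the WT libraries with LPS, Cdh5 was 1.48 to 2.20 CPM in WT LPS and 1.19 to 3.12 in WT LPS+CCM, and the 9 endothelial markers summed to 12.5 to 14.1 and 8.45 to 16.8 CPM. In KO the 9 markers summed to 9.56 to 42.1 CPM with vehicle, 11.6 to 50.3 with CCM, 9.03 to 43.3 with LPS and 5.79 to 24.7 with LPS+CCM, and in WT CCM to 11.3 to 16.1. Edn1 was also highest of its group in WT vehicle replicate 3 (1.97 CPM), KO vehicle replicate 4 (3.27) and KO CCM replicate 1 (3.45). KO vehicle replicate 5 had a like Edn1 level (3.1 CPM) with 2.08 CPM of Cdh5 and 16.8 CPM over the 9 markers. The part of endothelial or stromal RNA in the unstimulated values of Edn1, Kdr and Flt1 was not tested.

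**Figure D3:**
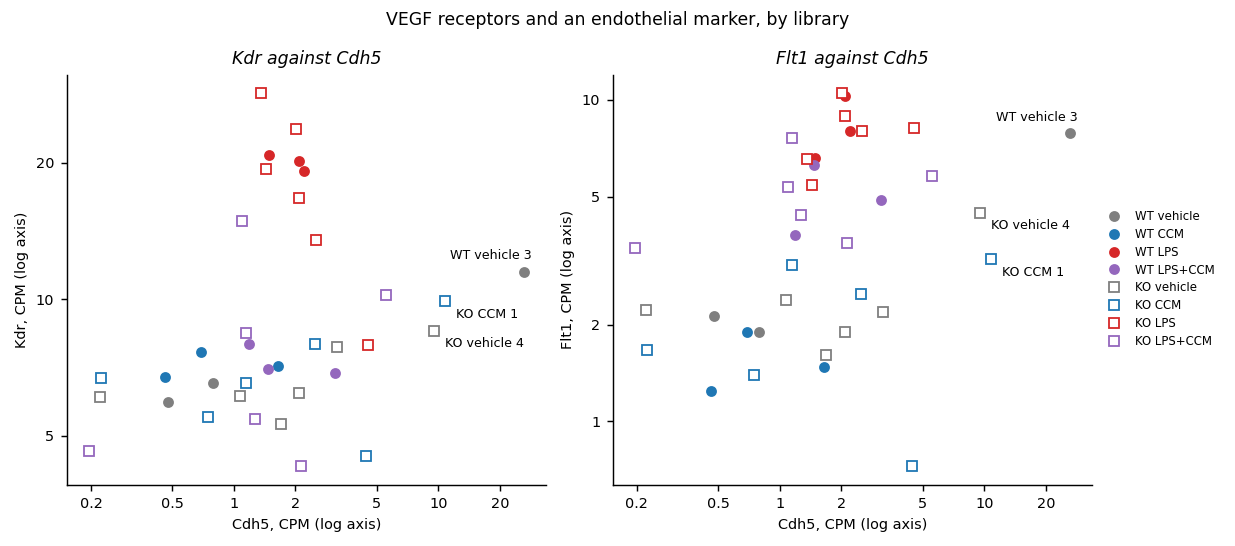
Kdr (left) and Flt1 (right) against the endothelial marker Cdh5, all in CPM on log axes, 1 point per library, with circles for WT, squares for KO and colours for the treatment. WT vehicle replicate 3 lies alone at 26.3 CPM of Cdh5, while the WT LPS libraries, which have the higher Kdr levels, lie between 1.48 and 2.20.

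Vegfa itself went the other way from its receptors with LPS. WT libraries held 75.4, 86.4 and 97.8 CPM with vehicle and 33.3, 45.9 and 45.5 with LPS, without overlap (log2 fold change -1.05, standard error 0.133, edgeR adjusted p = 6.68e-05). KO libraries ran from 35.8 over 80.7 to 105 CPM with vehicle and from 28.9 over 40.7 to 76.2 with LPS. The KO fall was called by a small margin with overlapping groups (-0.77, standard error 0.292, edgeR adjusted p = 0.0451), was seen in 6 of 6 pairs and was not called without KO replicate 1, 2, 3 or 4, with RLE size factors or with no filter beyond 1 count.

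In unstimulated cells Vegfa had 105, 122 and 141 CPM with CCM in WT, above all 3 vehicle libraries, a difference that was not called (0.48, standard error 0.124, edgeR adjusted p = 0.222). DESeq2 called it (adjusted p = 0.00152, range over the 12 alternatives 7.82e-05 to 1). In KO the mean was 106 ± 29.5 with CCM and 79.1 ± 26.2 CPM with vehicle (SD, n = 6), higher with CCM in 6 of 6 pairs. This was not called without a block (0.42, standard error 0.265, edgeR adjusted p = 1) and called with it (0.44, edgeR adjusted p = 0.00143, range over the 13 alternatives 0.000543 to 1). Under LPS no such difference was seen, with 42.3 ± 8.05 CPM in WT LPS+CCM and 41.6 ± 7.17 in WT LPS. The test of this contrast, the LPS by CCM interaction in WT, gave -0.48 (standard error 0.214, edgeR adjusted p = 0.338).

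Of Edn1, Kdr and Pdgfb, Pdgfb was the one whose difference with CCM lay in unstimulated cells. In WT, Vegfa (0.48 without LPS and 0.02 with it) and Pdgfa (-0.31 and -0.04) also differed more without LPS, not called by edgeR. WT libraries held 105, 89.7 and 88.1 CPM with vehicle and 71.5, 62.8 and 65.1 with CCM. KO libraries ran from 79.6 over 85.8 to 96.9 CPM with vehicle and from 57.8 over 61.1 to 70.6 with CCM. The groups did not overlap in either genotype, and 3 of 3 and 6 of 6 pairs were lower with CCM. As a description, the log2 difference was -0.52 ± 0.0793 in WT and -0.48 ± 0.0826 in KO (± standard error). LPS alone brought Pdgfb to a like level, 68.3, 72.3 and 66.5 CPM in WT, and this fall was tested and called (-0.44, standard error 0.0763, edgeR adjusted p = 0.000554). In KO it was also called (-0.47, standard error 0.115, edgeR adjusted p = 0.00392). Both tests use the vehicle libraries against which Pdgfb was seen lower with CCM, so they are not independent of its choice. With LPS and CCM together Pdgfb was 64.8 ± 6.74 CPM in WT and 64.7 ± 11.7 in KO, beside 69.0 ± 2.96 and 63.4 ± 9.69 with LPS alone, and the ranges overlapped.

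Pdgfa, the other PDGF chain, fell further with LPS. WT libraries held 48.4, 44.0 and 47.5 CPM with vehicle and 10, 14.6 and 16.4 with LPS (log2 fold change -1.75, standard error 0.142, edgeR adjusted p = 2.49e-06). KO libraries ran from 41.4 over 47.2 to 63.0 CPM with vehicle and from 10.2 over 16.1 to 31.9 with LPS (-1.47, standard error 0.237, edgeR adjusted p = 0.000174). Neither genotype had an overlap. CCM in unstimulated WT cells gave 38.1, 36.1 and 39.4 CPM, below all 3 vehicle libraries, but was not called (-0.31, standard error 0.0663, edgeR adjusted p = 0.134). DESeq2 called it (adjusted p = 0.03, range over the 12 alternatives 0.0174 to 1). In KO 6 of 6 pairs were lower with CCM, also not called (-0.19, standard error 0.17, edgeR adjusted p = 1). Under LPS the means with and without CCM were 13.4 ± 0.686 and 13.7 ± 3.30 CPM in WT and 17.1 ± 4.48 and 17.8 ± 7.32 in KO.

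Hbegf, on chromosome 18 from 36504929 to 36515805, ranged from 3.85 to 16.3 CPM over the 36 libraries. LPS against vehicle gave 10.9 ± 2.84 and 7.28 ± 2.83 CPM in WT and 11.4 ± 3.36 and 8.03 ± 2.77 in KO, higher in 3 of 3 and 6 of 6 pairs. Without a block this was not called (edgeR adjusted p = 0.1 and 0.15). With the block it was called in WT (edgeR adjusted p = 0.00246, range over the 12 alternatives 0.00098 to 0.604) and in KO (edgeR adjusted p = 0.00213, range over the 13 alternatives 0.00213 to 0.784). LPS+CCM libraries in WT held 6.54, 8.52 and 9.52 CPM, beside 7.91, 11.3 and 13.6 with LPS, lower in 3 of 3 pairs. This was not called without the block (-0.42, standard error 0.199, edgeR adjusted p = 0.221) and called with it (edgeR adjusted p = 0.0122, range over the 12 alternatives 0.0122 to 1).

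Tgfbi, the most abundant gene of the set, rose with LPS and was higher again with LPS and CCM. WT libraries held 378, 366 and 363 CPM with vehicle, 626, 682 and 728 with LPS and 937, 1015 and 1032 with LPS+CCM, with no overlap between these groups. LPS raised it in WT (log2 fold change 0.88, standard error 0.0655, edgeR adjusted p = 1.19e-06) and KO (0.96, standard error 0.111, edgeR adjusted p = 9.44e-06). CCM under LPS raised it further in WT (0.55, standard error 0.0604, edgeR adjusted p = 0.000257), a call that only the fit of all 36 libraries, among 12 alternatives, did not make (edgeR adjusted p = 0.133, range over the 12 alternatives 1.25e-26 to 0.133). KO libraries ran from 497 over 646 to 718 CPM with LPS and from 635 over 929 to 1035 with LPS+CCM, higher with CCM in 6 of 6 pairs and not called (0.48, standard error 0.137, edgeR adjusted p = 0.256).

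In unstimulated cells the Tgfbi values lay the other way. WT CCM libraries held 347, 334 and 344 CPM, below all 3 vehicle libraries, and KO CCM libraries ran from 242 over 285 to 329 CPM, lower in 6 of 6 pairs. Neither was called without a block (-0.13, edgeR adjusted p = 0.441 in WT, and -0.20, edgeR adjusted p = 1 in KO), and the KO value was called with it (edgeR adjusted p = 0.0333, range over the 13 alternatives 0.00799 to 1). The LPS by CCM interaction in the 12 WT libraries was called for Tgfbi, 1 of the 7 tested genes, beside 2.09% of 14747 genes (0.66, standard error 0.0821, edgeR adjusted p = 0.00274). That call was lost without WT replicate 2 and in the fit of all 36 libraries.

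**Figure D4:**
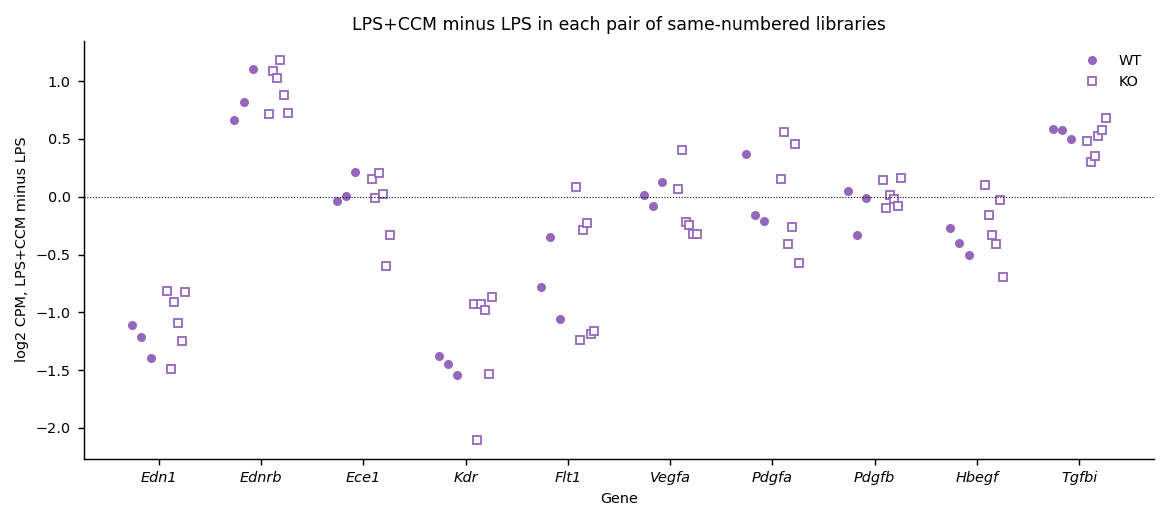
Log2 CPM with LPS+CCM minus log2 CPM with LPS for each pair of same-numbered libraries, with filled circles for 3 WT pairs and open squares for 6 KO pairs. All 9 pairs lie below zero for Edn1 and Kdr and above zero for Ednrb and Tgfbi.

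Between the genotypes no gene of the set was called. KO against WT gave 0 calls among 10 genes with vehicle and 0 with LPS, where 0% of 14385 and 0% of 13794 genes were called by edgeR. None of the 10 had an unadjusted p under 0.05 in either comparison, and DESeq2 called 0 of the 10. Tgfbi was the only gene of the set whose ranges were apart, with 284 to 361 CPM in KO vehicle and 363 to 378 in WT vehicle libraries (-0.16, standard error 0.109, edgeR adjusted p = 1). Log2 fold changes ran from -0.67 (Flt1) to 0.60 (Edn1) with vehicle and from -0.14 (Edn1) to 0.38 (Pdgfa) with LPS. Without WT replicate 3 the vehicle values turned from -0.67 to 0.32 for Flt1 and from -0.24 to 0.12 for Kdr. The genotype by LPS interaction was called for 0 of 10 genes, beside 0% of 15093 genes, and the genotype by CCM interaction under LPS for 0 of the 7, beside 0% of 14546 genes. None had an unadjusted p under 0.05 and DESeq2 called 0. The standard errors of these interactions ran from 0.163 to 0.544 for LPS over the 10 genes and from 0.192 to 0.616 for CCM over the 7, so moderate differences between the genotypes were not detectable. No statement of equal responses follows.

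Other genes of the same systems were read from lists. The median log2 fold change for LPS in WT was 0.27 for the VEGF family, 0.01 for PDGF, 0.92 for EGF, -0.59 for the TGF-beta system and -0.28 for other angiogenic factors, beside -0.05 for all genes tested. The counts that follow stand beside 63.0% of all genes called for LPS in WT. Counts without WT vehicle replicate 3 stand beside 8985 of 14687 genes. Those with total counts alone stand beside 10611 of 14501 genes, 2551 higher and 8060 lower. In the endothelin system 1 of 6 listed genes had enough counts to be tested for LPS in WT, and it was not called. Of the VEGF family 4 of 6 tested genes were called, 2 higher and 2 lower. Nrp2, a VEGF co-receptor, rose from 351 ± 21.8 to 1773 ± 94.3 CPM (log2 fold change 2.34, edgeR adjusted p = 1.62e-09). Vegfc was 1.59 ± 0.946 and 3.92 ± 0.782 CPM (1.28, edgeR adjusted p = 0.0133), a call made in 10 of 12 alternatives and lost with total counts alone. Vegfb fell from 19.1 ± 1.53 to 7.36 ± 0.646 CPM (-1.37, edgeR adjusted p = 2.42e-06). The VEGF count was 6 of 6 without WT vehicle replicate 3 and 3 of 6 with total counts alone. Of the PDGF family 2 of 3 were called. Pdgfrb, a receptor that binds PDGF-BB, rose from 22.9 ± 11.0 to 52.0 ± 1.05 CPM (1.18, edgeR adjusted p = 0.00384), and Pdgfc fell from 17.5 ± 2.67 to 3.87 ± 0.517 (-2.17, edgeR adjusted p = 1.07e-06). Pdgfrb is also on the fibroblast list.

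In the EGF family 4 of 7 tested genes were called, all higher, and with total counts alone 5, of which 1 was lower. Adam17, the protease that sheds HB-EGF, rose from 220 ± 5.33 to 597 ± 24.2 CPM (1.45, edgeR adjusted p = 8.44e-09). Egfr, the receptor for HB-EGF, rose from 3.72 ± 0.921 to 7.03 ± 0.277 CPM (0.92, edgeR adjusted p = 0.00224). Ereg, another ligand, rose from 0.753 ± 0.363 to 4.29 ± 0.857 CPM (2.46, edgeR adjusted p = 0.000112). The TGF-beta system had 7 of 9 called, 2 higher and 5 lower (8, with 1 higher, with total counts alone), with both receptor chains among the lower genes. Tgfbr1 fell from 306 ± 4.16 to 110 ± 21.4 CPM (-1.47, edgeR adjusted p = 1.75e-06), Tgfbr2 from 151 ± 15.3 to 50.9 ± 1.06 (-1.57, edgeR adjusted p = 7.68e-08) and Tgfb3 from 6.52 ± 1.90 to 1.86 ± 0.58 (-1.80, edgeR adjusted p = 0.000295).

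Among other angiogenic factors and regulators 10 of 15 were called, 5 higher and 5 lower, 9 without WT vehicle replicate 3, and 14 (5 higher, 9 lower) with total counts alone. Met, the receptor for hepatocyte growth factor, rose from 27.0 ± 3.88 to 354 ± 5.62 CPM (3.71, edgeR adjusted p = 6.6e-10), and Calcrl, a receptor subunit for adrenomedullin, from 27.5 ± 4.16 to 118 ± 8.94 (2.11, edgeR adjusted p = 5.65e-08). The endothelial gene Tie1 was called lower (-2.31, edgeR adjusted p = 0.047) and was -0.07 without WT vehicle replicate 3, where it had 13 CPM. In KO, LPS gave 5 of 6 calls for the VEGF family, 2 of 3 for PDGF, 3 of 6 for EGF, 5 of 9 for TGF-beta and 8 of 15 for the other factors, beside 47.1% of all genes. For CCM under LPS in WT, where 11.9% of all genes were called, the counts were 0 of 6 for the VEGF family, 1 of 3 for PDGF, 1 of 6 for EGF, 0 of 9 for TGF-beta and 1 of 15 for the other factors, and no gene of the endothelin list was tested. Ereg fell from 4.29 ± 0.857 to 2.29 ± 0.389 CPM (-0.89, edgeR adjusted p = 0.0269), Pdgfrb from 52.0 ± 1.05 to 44.9 ± 1.04 (-0.21, edgeR adjusted p = 0.0262) and Thbs1, which encodes the angiogenesis inhibitor thrombospondin 1, from 653 ± 32.8 to 532 ± 52.8 (-0.29, edgeR adjusted p = 0.0202). These 3 calls were made in 7, 4 and 7 of 12 alternatives, in this order.

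The genes most like Edn1, Kdr and Pdgfb were found by Pearson's r of log2 CPM over all 36 libraries, among 11178 genes. Libraries of a group share their treatment, so r mostly reflects group differences and is a description. For Edn1 they were Serpina3g (r = 0.986), Ripk2 (0.983), a kinase of innate immune signalling, and Marcksl1 (0.983). Serpina3g had 63.0 CPM with LPS and 33.8 with LPS+CCM in WT. For Kdr they were Tmcc3 (0.882), P2ry13 (0.861), an ADP receptor, and Snn (0.855). P2ry13 had 12 CPM with LPS and 5.43 with LPS+CCM in WT, beside 4.38 with vehicle. For Pdgfb they were Gsdme (0.721), a pore-forming gasdermin, Pea15a (0.71) and Man2c1 (0.676). Within the set, r was 0.891 between Edn1 and Ednrb and 0.715 between Kdr and Flt1, and 0.412 between Pdgfa and Pdgfb.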

How the data were processed

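Poly(A) RNA of 36 libraries was sequenced by the authors, and the submitters' processing notes name fastp, HISAT2 2.0.5, featureCounts 1.5.0-p3 and the build mm10. The deposited values are raw counts per gene, whole numbers without normalization. All 36 columns were used. Chi-square per degree of freedom between libraries of a group was at least 4.08, so none was a repeat.

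From the counts, the libraries of each comparison alone entered a fit in edgeR 4.0.16 in R 4.3.3 (filterByExpr, TMM, glmQLFit, glmQLFTest, two-sided, no block), with Benjamini-Hochberg adjustment. Interactions were product terms. The script was tested on simulated data. CPM use TMM factors, and log2 CPM a prior count of 2. Of 54532 genes, 53462 have the coordinates of GENCODE release 21, Hbegf not among them.

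The genes, the pathway and marker lists (macrophage, endothelial, fibroblast, neutrophil, B cell, T cell, megakaryocyte, erythroid) and the naming rule were chosen with earlier results of these data known. The rule named all 10 genes, Arntl, up to 3 called genes per pathway list with the largest change for LPS and for LPS+CCM in WT leaving out genes whose log2 CPM averaged under 1, and the 3 genes most like each of Edn1, Kdr and Pdgfb. Cdh5, Col1a1 and the sum without Vwf were singled out after their values were seen.

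The replicate number was taken as pairing where every same-numbered pair of libraries deviated together from its group means with a correlation over 0.1. This held for LPS in WT (0.114 to 0.224) and KO (0.346 to 0.906), CCM in KO (0.435 to 0.923) and LPS+CCM in WT (0.211 to 0.451). Differently numbered KO libraries correlated too, with a median of 0.285 for LPS and 0.357 for CCM. The rule was not met for CCM in WT (from -0.003) or LPS+CCM in KO (from -0.186). Alternatives were DESeq2 1.42.0, RLE size factors, total counts alone, no filter beyond 1 count, all 36 libraries in one fit, the replicate block and leaving out libraries.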

Additional observations from a re-analysis of the deposited data

Results flagged for a closer look

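Flt1 in KO vehicle replicate 4 had 4.45 CPM, far above the nearest of the other 5 libraries at 2.38 CPM, with a gap of 0.729 of the whole range. The same library had 9.55 CPM of Cdh5. Pdgfa in KO LPS replicate 6 had 31.9 CPM, with the nearest at 16.9 CPM and a gap of 0.694 of the range. The neutrophil markers of KO replicate 6 summed to at least 982 CPM, above every other library. The limit used was Dixon's critical value at a level of 0.05, which about 1 of 20 groups passes by chance. It was applied to each of the 10 genes in every KO group, since the WT groups had too few libraries. Over that many groups some passes are expected by chance. The causes were not tested.

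The CCM difference of Tgfbi changed with LPS in WT. The interaction was 0.66 on the log2 scale (edgeR adjusted p = 0.00274), with 3 of 3 pairs lower with CCM without LPS and 3 of 3 pairs higher with it. The numbers did not pair the libraries for CCM without LPS in WT. The call was lost without WT replicate 2 (edgeR adjusted p = 0.162) and in the fit of all 36 libraries.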

How the results depend on the processing

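The LPS calls of Edn1, Ednrb, Kdr, Pdgfa, Pdgfb and Tgfbi were made in both genotypes under every alternative. The counts below are of the 7 genes tested for CCM. Counts over all genes for the other comparisons are in the next paragraph. For CCM in unstimulated WT, DESeq2 called 2, no filter beyond 1 count 3 and the replicate block 2, in place of 0. For CCM in unstimulated KO the replicate block called 2, and 3 without KO replicate 6. For LPS+CCM in WT, in place of 2 beside 1621 of 13579 genes, the count was 1 with total counts alone, beside 2272 of 13579. It was 4 with no filter beyond 1 count, beside 2099 of 25292 genes, and 4 with the replicate block, beside 3220 of 13579. In the fit of all 36 libraries it was 0, beside 17 of 15720. With a library left out it was 1 to 4, and 4 without WT LPS replicate 1, beside 1352 of 13936. For LPS+CCM in KO, in place of 0, it was 1 in the fit of all 36 libraries, 2 with the replicate block (Ednrb, edgeR adjusted p = 0.000707, range 0.000707 to 0.997, and Tgfbi, 0.00658, range 0.00543 to 0.775) and 2 with the block and no KO replicate 6. In this comparison the numbers did not pair the libraries by the rule used. For the LPS by CCM interaction in WT, in place of 1, it was 2 with no filter, 0 in the fit of all 36 libraries, 2 with the replicate block and 0 to 1 when a replicate was left out. The replicate block made Vegfa and Pdgfa called in unstimulated WT (edgeR adjusted p = 0.00351, range 7.82e-05 to 1, and 0.0438, range 0.0174 to 1), where the numbers did not pair the libraries, and Vegfa in the interaction (0.00743, range 0.00169 to 1). It lost no call among the 10 genes. No block could be fitted for KO against WT.

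Counts over all genes moved more. For CCM in WT 8 genes became 247 with DESeq2, 377 with no filter, 255 with the replicate block, 0 in the fit of all 36 libraries and 0 to 16 with a library left out. For CCM in KO 0 became 24 with DESeq2, 14 in the fit of all libraries, 429 with the replicate block, 729 with the block and no KO replicate 6, and 141 without KO replicate 6 alone. For LPS+CCM in WT 1621 became 17 in the fit of all libraries, 3220 with the block, 958 when WT LPS replicate 2 was left out and 893 when it was WT LPS+CCM replicate 2. For LPS+CCM in KO 15 became 180 with DESeq2, 10 with no filter, 285, 777 and 304 (all libraries, block, block and no KO replicate 6), 170 without KO replicate 6 and 0 to 7 without another KO replicate. For the interaction 308 became 696 with DESeq2, 721 with no filter, 0 in the fit of all libraries, 548 with the block, and 174, 0 and 8 without WT replicate 1, 2 and 3. LPS calls went from 9139 to 5644 in WT with all libraries in one fit, and from 6433 in KO to 9774 with the block and 10023 with the block and no KO replicate 6 together. KO against WT gave 1 gene with DESeq2, with vehicle and with LPS, and 1 with LPS without WT replicate 1.

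Some directions turned. Ece1 was -0.176 in WT and -0.069 in KO for LPS with total counts alone, and -0.006 for CCM in KO with the block and no KO replicate 6. Pdgfa for LPS+CCM was 0.041 in WT with total counts alone and 0.1 in KO with the block and no KO replicate 6. Directions also turned when libraries were left out. Over all alternatives the range for CCM in WT was -0.248 to 0.062 for Ece1 and -0.403 to 0.179 for Hbegf. For CCM in KO it was -0.019 to 0.072 for Ece1. For LPS+CCM it was -0.206 to 0.114 in WT and -0.194 to 0.116 in KO for Pdgfa, and -0.111 to 0.154 in WT for Vegfa. For KO against WT with vehicle the range was -1.005 to 0.322 for Flt1 and -0.41 to 0.123 for Kdr. Apart from total counts alone, whose construction removes the TMM factors, the causes were not tested. Depth limits the unstimulated values of Edn1 (10 to 105 counts per library), Ednrb (23 to 115) and Flt1 (10 to 264).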
